A study of Mus musculus with 16 samples.

Results

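The response of the colorectum to a high intake of N-glycolylneuraminic acid (Neu5Gc) was set against the response of the liver. All 16 of the study's 16 RNA-seq libraries entered the comparison, with tissue and dose taken from each sample title. Of 36118 genes in the deposited tables, 18703 had enough counts for a test of the difference between the tissues. Of these, 15076 passed the filter on low counts in each tissue on its own and could be sorted into genes that moved alike, oppositely or in 1 tissue only.

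Sialic acids are acidic sugars at the ends of the glycans that cover cells. Mice make Neu5Gc from the related N-acetylneuraminic acid with the hydroxylase Cmah, and sialidases such as Neu3 remove sialic acids from glycolipids and glycoproteins. The colorectal epithelium meets a drinking-water compound from the gut lumen, whereas the liver receives absorbed compounds through portal blood. Both tissues transport bile acids and conjugate foreign compounds, and both keep a circadian clock, a feedback loop of transcription factors with a daily rhythm.

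All mice were male, 8 weeks old and of the APCMin/+ strain, which carries a truncating germline allele of the tumour suppressor Apc and develops intestinal adenomas. Every group drank Neu5Gc for 14 days, at 0.0127 mg/ml in the low group (titled Control) or at 0.2535 mg/ml in the high group (titled Treatment). The colorectum gave 4 low and 6 high libraries and the liver 3 low and 3 high libraries. The series' design text assigns 6 mice to the control and 4 to the treatment, the reverse of the colorectum titles, and the titles were followed here. With the colorectum titles swapped, every colorectum sign given here would turn, and with it the sign agreement and correlations between tissues. The counts would then be 1110 called differences, 95 alike, 73 opposite, 454 colorectum only and 196 liver only genes. No label ties a library to a mouse or states that replicates are separate mice, so the p-values measure the spread between libraries only. The share of adenoma in the colorectum tissue is not given.

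Summed counts, in units of 1000000, ran from 46.1 to 73.9 in the colorectum and from 47.5 to 86.1 in the liver, where every high library (at least 68.8) was deeper than every low library (at most 55.9). Levels are given as CPM, a gene's count per 1000000 counts of its library. A summed level of 12 colorectal epithelium markers was 17791 to 27436 CPM (median 25162) in the low and 13441 to 18534 CPM (median 14536) in the high colorectum libraries, and 22.8 to 38.1 CPM in the liver. The ranges of the groups overlapped, the median sum was lower at the high dose, and the part of this level in the colorectum changes was not tested. Of the 12 markers, 3 were called higher and 3 lower in the colorectum by the test described below, with a median log2 fold change of 0.198. These are 25% each, against 7.29% and 8.21% of all genes. In the liver, 12 hepatocyte markers summed to 94607 to 117680 CPM. Several libraries carried markers of other tissues. Colorectum low library 4 held 15208 CPM of 16 kidney tubule markers, against 60.3 to 124 CPM in the other colorectum libraries. It also held 2225 CPM of the hepatocyte markers, against 218 to 340 CPM, and 2307 CPM of 8 erythroid markers, against 55.3 to 239 CPM. Colorectum low library 3 held 4757 CPM of 16 pancreatic acinar markers, against 111 to 526 CPM in the others. Liver low library 1 (8950 CPM) and liver high library 1 (3844 CPM) held the same pancreatic markers, against 30.9 to 54.2 CPM in the other liver libraries. The 15 skeletal muscle markers summed to 34.7 to 51.3 CPM in the low and 237 to 305 CPM in the high liver libraries, with no overlap. The 11 neutrophil markers summed to 7.49 to 9.45 CPM in the low and 58.4 to 227 CPM in the high colorectum libraries. Ly6g alone was at 0.537 to 3.36 CPM in the low and at 49.5 to 218 CPM in the high colorectum libraries. In the high libraries, in order, the sums were 224, 98.1, 58.4, 227, 68.3 and 102 CPM. Ly6g made up 218, 91.7, 49.5, 126, 63.5 and 97.5 CPM of these. Apart from high library 4, the sum was thus higher through Ly6g and not through the other markers. Of 8 neutrophil markers tested in the colorectum, 1 was called higher by the test described below (12.5%), against 7.29% of all genes. In bulk tissue, fewer cells of a type and less RNA per cell cannot be told apart, and the part of these admixtures in the results was not tested beyond the fits without libraries that are given beside them. Genes of gut position also set the colorectum groups apart. Hoxd13, a posterior homeobox gene, was at 0.0406 to 2.31 CPM in the low and at 49.6 to 113 CPM in the high libraries. Slc10a2, a bile acid transporter of ileal enterocytes, was at 11.3 to 91.1 CPM in the low and at 1.63 to 4.07 CPM in the high libraries. The part of gut position in the colorectum changes was not tested.

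A change is the log2 fold change, high minus low, and the difference between tissues is the colorectum change minus the liver change. A gene was called when its p-value from edgeR's quasi-likelihood test, adjusted over all genes tested by the Benjamini-Hochberg method, was below 0.05. In the colorectum 2784 of 17961 genes were called (15.5%), 1309 higher (7.29%) and 1475 lower (8.21%). In the liver 1004 of 15522 were called (6.47%), 489 higher (3.15%) and 515 lower (3.32%). The difference between tissues was called for 1504 of 18703 genes (8.04%), 763 positive (4.08%), with the colorectum moving up relative to the liver, and 741 negative (3.96%). Same-numbered low and high liver libraries deviated together, and with their number as a block the liver calls fell to 630.

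Few genes were called in both tissues. Of the 15076 genes measured in both tissues, 2266 were called in the colorectum and 954 in the liver, and 168 in both. These 168 were 7.41% of the colorectum calls, against a liver call rate of 6.33% over all 15076 genes, and 17.6% of the liver calls, against a colorectum rate of 15% over all genes. A call in 1 tissue alone does not show that the tissues differ: for 1373 of the colorectum calls and 472 of the liver calls the gene was not called in the other tissue and neither was the difference. The signs agreed for 43.5% of the 168 genes and for 46.6% of all 15076 genes. Across genes, which are not independent and share their libraries, the changes of the tissues had a Pearson correlation of -0.0229 and a Spearman correlation of -0.0806.

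By these calls 73 genes (0.484% of 15076) moved alike in direction, of which 52 fell and 21 rose in both tissues. For 13 of the 73, of which 7 rose and 6 fell, the difference itself was called, so that their sizes differed. A further 95 genes (0.63%) moved oppositely, 46 up in the colorectum and down in the liver and 49 the other way, and the difference itself was called for 88 of the 95. A gene counted for 1 tissue only when it was called there, the difference was called, and the 95% interval of its change in the other tissue lay within 1 log2 unit of 0. This held for 555 genes of the colorectum (3.68%), 286 up and 269 down, and for 243 genes of the liver (1.61%), 120 up and 123 down. With the liver block, 63 opposite and 151 liver only genes were counted. Without colorectum low libraries 3 and 4, the counts were 60 alike, 69 opposite, 591 colorectum only and 285 liver only, of which 47, 53, 370 and 183 genes were also in the class with all libraries. Single libraries of either tissue moved the counts more. Without liver low library 3, 33 genes were alike, 37 opposite, 296 colorectum only and 86 liver only. Without colorectum low library 3 alone, 102 were alike, 128 opposite, 886 colorectum only and 278 liver only. The class held in all 16 fits that each left out 1 library for 16 alike, 16 opposite, 174 colorectum only and 46 liver only genes. The direction of the liver calls also depended on scaling: on log2(TPM + 1), with TPM the authors' length-scaled values, the median liver change shifted by -0.193 and 9.45% of 1703 liver calls were higher, against 48.7% in the test of counts. The share of positive difference calls was then 70.5%, against 50.7%, with a median shift of 0.11. On that scale 39 of the 73 alike, 34 of the 95 opposite, 257 of the 555 colorectum only and 128 of the 243 liver only genes were again in their class.

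**Figure D1:**
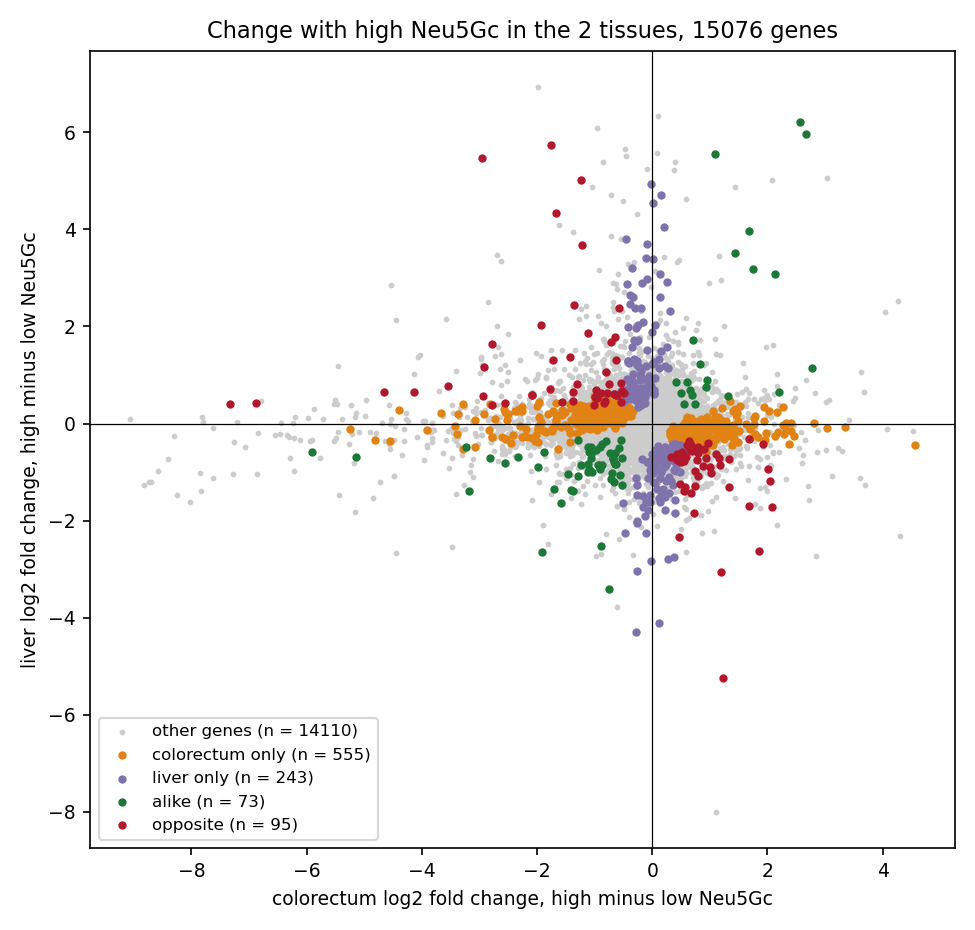
Log2 fold change (high minus low Neu5Gc) of 15076 genes in the colorectum (horizontal axis) and the liver (vertical axis), each point 1 gene. Green, red, orange and purple points are the 73 alike, 95 opposite, 555 colorectum only and 243 liver only genes; the purple points lie along the vertical and the orange points along the horizontal axis line.

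Shared falls were ranked by the smaller change among genes with a mean of at least 5 CPM in each tissue, those stable to leaving out 1 library first. The largest was in Acacb (ENSMUSG00000042010), the mitochondrial acetyl-CoA carboxylase that makes the malonyl-CoA restraining fatty acid import. In the colorectum it was at 42, 34.7, 36 and 32.3 CPM in the low libraries and at 10.7, 13.3 and 20.9 CPM (lowest, median and highest) in the high libraries. In the liver it was at 86.4, 124 and 145 CPM in the low and at 36.2, 52.2 and 39.3 CPM in the high libraries. No high library reached a low one in either tissue. The changes were -1.38 (SE 0.15, adjusted p = 2.65e-04, edgeR) in the colorectum and -1.38 (SE 0.19, adjusted p = 0.00408) in the liver. Their difference was 0.00 with a 95% interval from -0.57 to 0.57. High and low libraries do not overlap for 12.7% of the genes tested in the colorectum and for 28.1% in the liver.

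Ndrg1 (ENSMUSG00000005125), a stress- and hypoxia-responsive gene, also fell in both tissues. Its low colorectum libraries were at 281, 256, 151 and 630 CPM and its high libraries at 107, 115 and 159 CPM (lowest, median, highest). Its liver libraries were at 32.8, 30.4 and 23.5 CPM in the low and 11.8, 9.42 and 10.8 CPM in the high group. The colorectum groups overlapped by 1 low library, and the liver groups were apart. The changes were -1.41 (SE 0.31, adjusted p = 0.013) and -1.36 (SE 0.16, adjusted p = 0.00163). Without colorectum low library 4, its highest library, the colorectum fall was -0.86 (adjusted p = 0.00607).

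Further shared falls were in enzymes and transporters. St3gal1, which adds sialic acid to O-glycans, fell by 1.29 on the log2 scale (SE 0.23, adjusted p = 0.00495) in the colorectum and by 1.09 (SE 0.12, adjusted p = 0.00121) in the liver. Slc17a4, an anion transporter, fell by 1.46 (SE 0.20) and 1.04 (SE 0.11). Cbs, the cystathionine synthase that consumes homocysteine, fell by 0.87 (SE 0.13) and 0.86 (SE 0.09). Gdf10, a secreted factor of the TGF-beta superfamily, fell by 1.09 (SE 0.22) and 0.94 (SE 0.16). All 6 of these shared falls held their class in each of the 16 fits leaving out 1 library.

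Shared rises were fewer. Irf2 (ENSMUSG00000031627), an interferon regulatory factor, was at 63.4, 59.9, 33.4 and 47.3 CPM in the low and at 66.1, 78.8 and 91.7 CPM (lowest, median, highest) in the high colorectum libraries. It was at 19.3, 22.4 and 24.7 CPM in the low and at 32.8, 33.3 and 34.9 CPM in the high liver libraries. All high libraries lay above all low ones in both tissues. Irf2 rose by 0.65 (SE 0.14, adjusted p = 0.0103) and 0.69 (SE 0.10, adjusted p = 0.00492). On log2(TPM + 1) its colorectum call was lost (0.57, adjusted p = 0.051), and without colorectum low libraries 3 and 4 the rise was 0.42 (adjusted p = 0.0429).

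Rdh9, of the retinol dehydrogenase family, and Abcg5, a subunit of the sterol exporter, rose in both tissues but more in the colorectum. The class was kept in all 16 fits for Rdh9 and in 15 for Abcg5. Rdh9 rose by 2.77 (SE 0.34) in the colorectum and by 1.15 (SE 0.14) in the liver, with a called difference of 1.63 (SE 0.44, adjusted p = 0.0333). Abcg5 rose by 2.20 (SE 0.34) and 0.65 (SE 0.12), with a called difference of 1.56 (SE 0.43, adjusted p = 0.0353), and lost its liver call without liver low library 3 (0.58, adjusted p = 0.0731). The difference between these rises was not called with the liver block (Rdh9 0.0536, Abcg5 0.0573). It was also lost without any of the liver libraries, except high library 1 for Rdh9, and without colorectum low library 1 or high library 1, for Rdh9 also high library 6 and for Abcg5 also low library 2 or 3 (adjusted p up to 0.0866). Slc5a6, a carrier of biotin and pantothenate, rose by 0.95 (SE 0.19) and 0.90 (SE 0.23), and its liver call was lost without liver low library 2 or 3 or liver high library 1 or 2 (adjusted p up to 0.16). Csrnp1, a nuclear protein induced by axin, rose by 0.83 (SE 0.22) and 1.23 (SE 0.17), and it was not called in the colorectum when low library 1, 2 or 3 or high library 1 or 3 was left out (adjusted p up to 0.0774). Hopx, an atypical homeodomain protein, passed at 0.61 (SE 0.17) and 0.86 (SE 0.21), but its class held in 4 of the 16 fits and its colorectum change was 0.29 without low libraries 3 and 4 (not called).

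**Figure D2:**
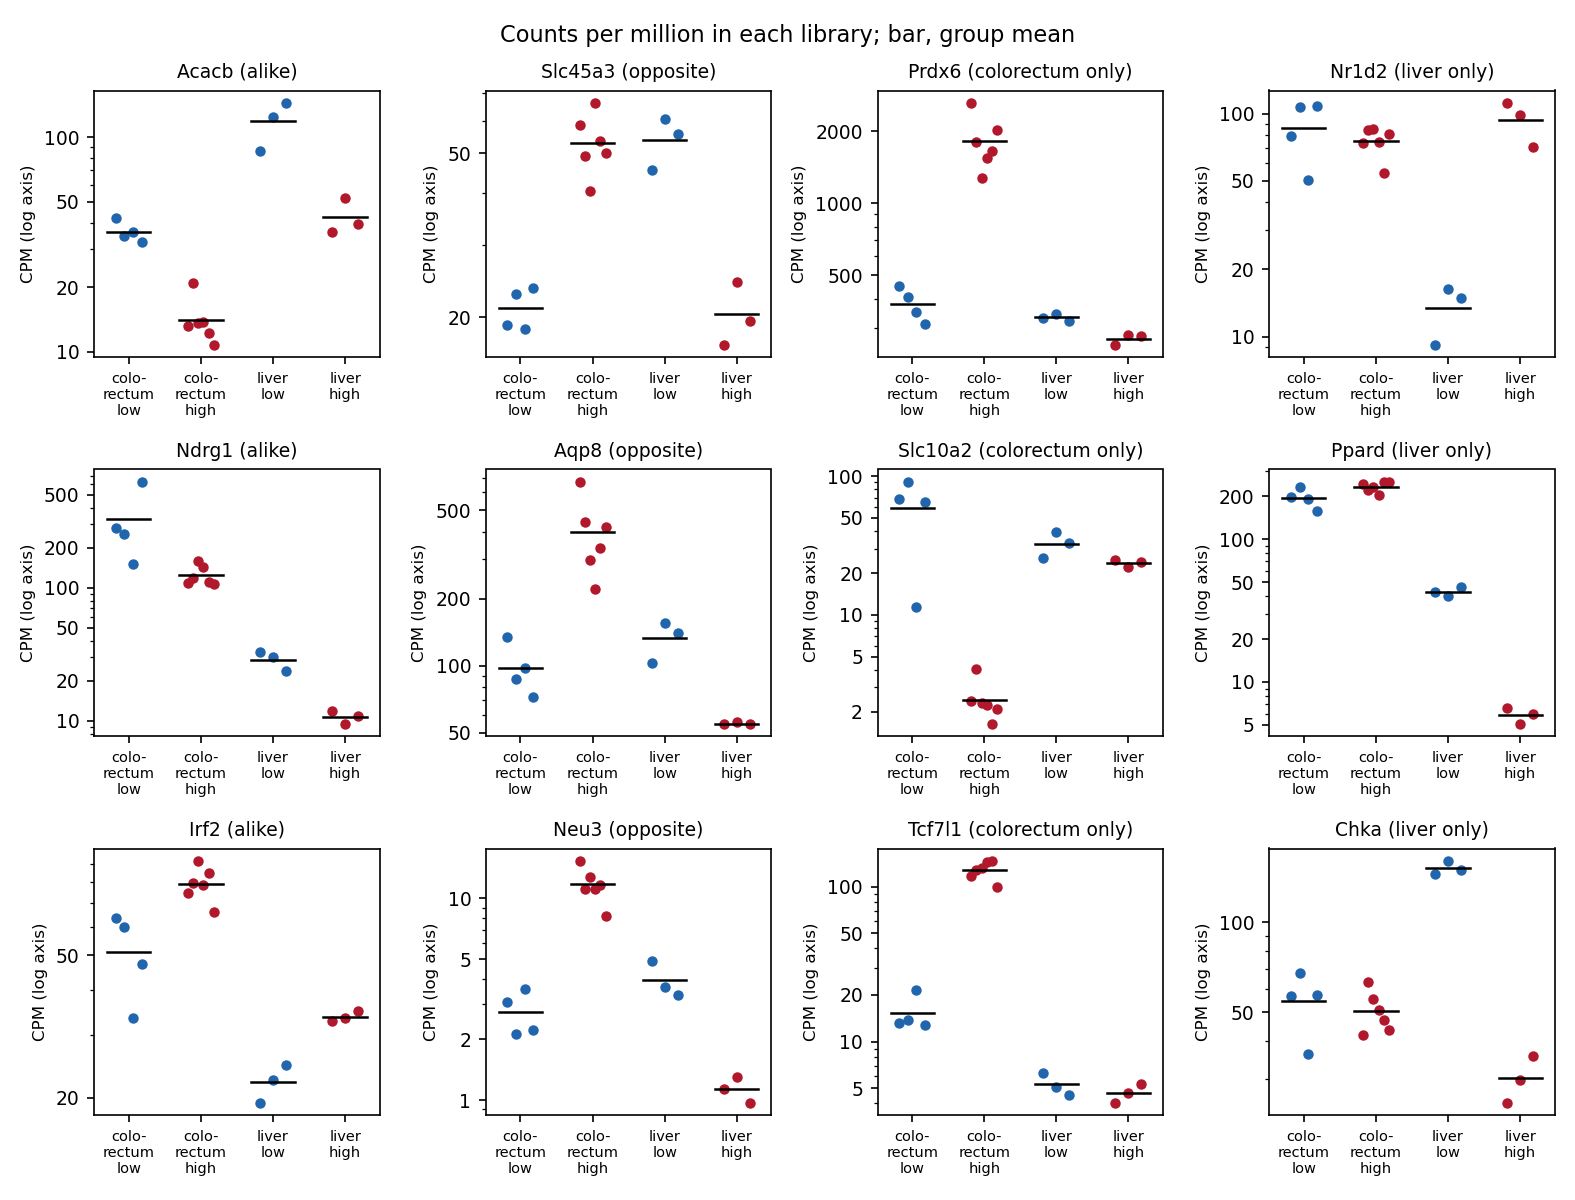
CPM on a log axis in each library for 3 genes of each class (columns); blue points are low and red points high libraries, and bars are group means. Acacb and Ndrg1 fell in both tissues, Slc45a3, Aqp8 and Neu3 rose in the colorectum and fell in the liver, and the genes of the last 2 columns moved in 1 tissue.

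Some genes rose in the colorectum and fell in the liver. The ranking by the smaller change took genes with a mean of at least 5 CPM in each tissue, which leaves out Neu3, described below. Slc45a3 (ENSMUSG00000026435), a transporter of the sugar carrier superfamily, came first among those stable to leaving out 1 library. It was at 19.1, 22.8, 18.7 and 23.5 CPM in the low and at 40.4, 51.8 and 66.3 CPM (lowest, median, highest) in the colorectum at the high dose. In the liver it was at 45.4, 60.6 and 55.7 CPM in the low and at 17.1, 24.4 and 19.6 CPM in the high libraries. The groups were apart in both tissues and in opposite order. The changes were 1.34 (SE 0.16, adjusted p = 4.46e-04) and -1.31 (SE 0.15, adjusted p = 0.00131), and the difference was 2.65 (SE 0.25, adjusted p = 3.19e-05).

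Aqp8 (ENSMUSG00000030762), a water channel of colonocytes and hepatocytes, showed the same order. Its low colorectum libraries were at 134, 86.6, 97.8 and 71.9 CPM and its high libraries at 221, 380 and 671 CPM (lowest, median, highest). Its liver libraries were at 103, 155 and 140 CPM in the low and at 54.5, 55.7 and 54.5 CPM in the high group. Aqp8 rose by 2.05 (SE 0.32) in the colorectum and fell by 1.18 (SE 0.13) in the liver, a difference of 3.25 (SE 0.44, adjusted p = 5.25e-04). Nt5e (CD73), which makes extracellular adenosine, gave 2.02 (SE 0.34) and -0.93 (SE 0.16). Apobec1, the cytidine deaminase that edits Apob mRNA, gave 1.01 (SE 0.18) and -0.89 (SE 0.14). Plin2, a coat protein of lipid droplets, gave 0.93 (SE 0.17) and -0.71 (SE 0.11). Gstm2, a glutathione transferase with close paralogs between which reads may be split, gave 0.78 (SE 0.17) and -0.74 (SE 0.10), and its colorectum call was lost without low libraries 3 and 4 (0.61, adjusted p = 0.0733). These genes kept the opposite class in all 16 fits leaving out 1 library.

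In the other direction, 4 of the 6 genes named were less stable. Slc25a4, the ADP/ATP carrier typical of heart and muscle, changed by -0.71 (SE 0.17) in the colorectum and 1.68 (SE 0.14) in the liver, and Jade1, a scaffold of a histone acetyltransferase complex, by -0.63 (SE 0.14) and 1.31 (SE 0.13). Both kept their class in all 16 fits, and both lost the colorectum call without low libraries 3 and 4 (adjusted p = 0.056 and 0.0688). Ppara, the fatty acid receptor that activates lipid oxidation genes, fell by 1.78 (SE 0.33) in the colorectum and rose by 0.72 (SE 0.15) in the liver, where its call was lost without low library 1 or 3 or high library 1 or 2 (adjusted p up to 0.0925). Tbc1d16, which acts on Rab GTPases, fell by 1.31 (SE 0.21) and rose by 0.81 (SE 0.20), with the liver call lost without any of the low libraries or high library 1 or 2 (adjusted p up to 0.171). Shf, an SH2-domain adapter, changed by -0.76 (SE 0.20) and 0.82 (SE 0.19), and its class held in 6 of 16 fits (adjusted p up to 0.0824 in the colorectum and 0.132 in the liver). With the liver block its liver p was 0.068.

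Ckm, the muscle creatine kinase, fell by 1.24 (SE 0.21) in the colorectum and rose by 5.02 (SE 0.86) in the liver, from 2.42, 0.972 and 0.174 CPM to 34.6, 33.7 and 44.7 CPM. It is a skeletal muscle marker. Of the 15 markers of that list tested in the liver 13 rose there (86.7%, median change 5.02), against 3.15% of all genes. In the colorectum 1 of 13 tested rose (7.69%) and 2 fell (15.4%), against 7.29% and 8.21% of all genes. The difference was called negative for 12 of 15, against 3.96% of all genes. Liver calls among the markers numbered 5 to 11 in fits leaving out 1 liver library, the fewest without high library 2, and 6 with the liver block, where Ckm (adjusted p = 0.198) and Acta1 (0.184) were not called. Both also lost the liver call without low library 2 or any of the high libraries (adjusted p up to 0.156). Acta1, skeletal muscle actin, changed by -1.76 (SE 0.31) in the colorectum and 5.74 (SE 0.92) in the liver. Whether these transcripts come from muscle carried over with the liver samples was not tested.

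**Figure D3:**
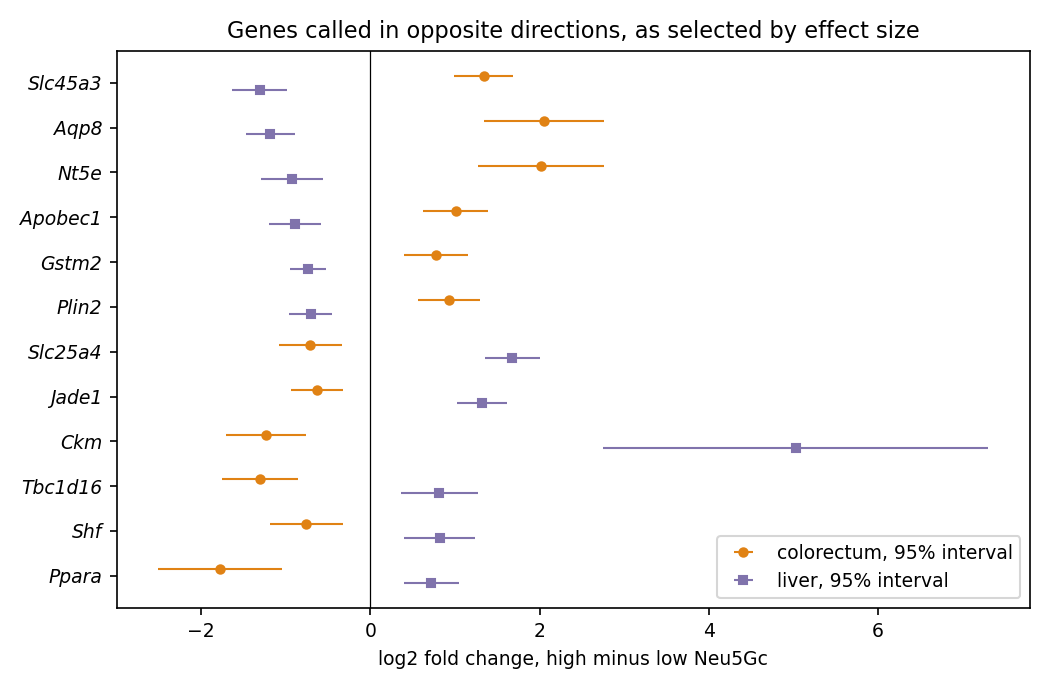
Log2 fold change (high minus low Neu5Gc) with 95% intervals in the colorectum (orange circles) and the liver (purple squares) for the 12 genes named for opposite changes. Intervals of the tissues lie on opposite sides of 0 for each gene, and the interval of Ckm in the liver is the widest.

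Genes that moved in the colorectum only included enzymes of redox and drug metabolism among the rises. Prdx6 (ENSMUSG00000026701), an antioxidant peroxiredoxin, was at 451, 407, 352 and 313 CPM in the low and at 1280, 1730 and 2640 CPM (lowest, median, highest) in the colorectum at the high dose. In the liver it was at 333, 345 and 322 CPM in the low and at 255, 281 and 280 CPM in the high libraries, so that the high group was there slightly lower without overlap. Prdx6 rose by 2.28 in the colorectum (SE 0.23, adjusted p = 2.17e-04), and its liver change was -0.21 with a 95% interval from -0.44 to 0.02. The difference was 2.50 (SE 0.32, adjusted p = 3.61e-04).

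Other rises of the colorectum were of the same or larger size. Cyp2d12, a cytochrome P450 with close paralogs, rose by 3.35 (SE 0.57), and its liver change was -0.07 (interval -0.61 to 0.47). Ggh, a lysosomal hydrolase of folate polyglutamates, rose by 2.41 (SE 0.31), Gstp3, a pi-class glutathione transferase, by 2.14 (SE 0.23), and Adgrf1, an adhesion G protein-coupled receptor, by 2.27 (SE 0.34). Their liver changes lay between -0.26 and -0.03. Tcf7l1 (ENSMUSG00000055799), a transcription factor that partners beta-catenin in Wnt signalling, rose from 13.2, 13.7, 21.6 and 12.7 CPM to 99.2, 130 and 147 CPM (lowest, median, highest) in the colorectum. It stayed between 4 and 6.3 CPM in the 6 liver libraries. Its colorectum change was 3.04 (SE 0.22, adjusted p = 3.29e-05), its liver change -0.10 (interval -0.55 to 0.36) and the difference 3.14 (SE 0.32, adjusted p = 4.64e-05).

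Among the named falls of the colorectum only class, Slc10a2 (ENSMUSG00000023073), the apical bile acid transporter of ileal enterocytes, was at 68.7, 91.1, 11.3 and 64.7 CPM in the low and at 1.63, 2.27 and 4.07 CPM (lowest, median, highest) in the colorectum at the high dose. In the liver it was at 25.5, 39.4 and 32.7 CPM in the low and at 24.8, 22.2 and 23.9 CPM in the high group. Every high library lay below every low library in both tissues. The colorectum change was -4.55 (SE 0.45, adjusted p = 2.70e-04), the liver change -0.37 (interval -0.66 to -0.08, adjusted p = 0.13) and the difference -4.18 (SE 0.61, adjusted p = 0.00121).

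Car8, an inactive carbonic anhydrase relative, fell by 3.66 (SE 0.29) in the colorectum and changed by 0.22 (SE 0.10) in the liver. Slc3a1, the heavy subunit of a cystine carrier of kidney and gut, fell by 4.81 (SE 0.72), and its liver change was -0.34 (SE 0.13). Vnn1, a pantetheinase, fell by 4.40 (SE 0.48), and Nags, which makes the cofactor of the first urea cycle enzyme, fell by 3.39 (SE 0.53). Their liver changes were 0.27 (SE 0.20) and -0.22 (SE 0.12). Slc3a1 was at 219 CPM and Vnn1 at 34.3 CPM in colorectum low library 4, the library with kidney markers, against 30.4 to 47.8 and 4.27 to 13.4 CPM in the other low libraries. Slc10a2, Car8, Slc3a1, Vnn1, Nags, Prdx6, Cyp2d12, Ggh, Gstp3 and Adgrf1 kept their class in all 16 fits leaving out 1 library.

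The core circadian clock moved in the liver, and 5 of its genes met the rule for liver only. Of 19 clock genes 9 rose (47.4%) and 4 fell (21.1%) in the liver, against 3.15% and 3.32% of all genes. In the colorectum 1, Rora (-1.20), fell (5.26%), against 8.21% of all genes. The difference was called positive for 4 and negative for 7, against 4.08% and 3.96% of all genes. Leaving out 1 library gave 6 to 9 rises in the liver, the fewest without liver low library 2 or 3, and 2 to 4 positive differences, the fewest without liver low library 1 or liver high library 1 or 2. The loop is written in short promoter elements: the E-box (CACGTG) bound by Clock and Arntl, the D-box (TTATGTAA or TTATGCAA) bound by Dbp, Tef and Hlf and by the repressor Nfil3, and the ROR element bound by the Ror activators and the Nr1d repressors. In RefSeq promoters of build GRCm38.p6, from 250 bases before to 50 after each start, 16 of the 19 genes had a window. The promoters of Per3, Bhlhe41 and Arntl are shown because each holds a different element in a gene with a large liver change, with the element in capitals.

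Per3 (chr4:151044616-151044915, minus strand, D-box): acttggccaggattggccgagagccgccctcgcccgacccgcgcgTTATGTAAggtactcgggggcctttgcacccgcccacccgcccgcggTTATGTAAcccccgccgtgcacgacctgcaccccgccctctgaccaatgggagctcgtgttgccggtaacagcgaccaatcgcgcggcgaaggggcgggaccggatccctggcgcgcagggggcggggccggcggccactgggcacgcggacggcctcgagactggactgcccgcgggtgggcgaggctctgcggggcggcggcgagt
Bhlhe41 (chr6:145865371-145865670, minus strand, E-box): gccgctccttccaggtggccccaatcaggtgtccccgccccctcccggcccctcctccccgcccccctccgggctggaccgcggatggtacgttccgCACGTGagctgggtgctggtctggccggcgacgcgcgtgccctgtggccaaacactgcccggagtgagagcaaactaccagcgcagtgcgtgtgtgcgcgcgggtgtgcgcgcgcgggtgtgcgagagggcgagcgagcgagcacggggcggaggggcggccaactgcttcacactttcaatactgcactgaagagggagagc
Arntl (chr7:113207261-113207560, plus strand, ROR element): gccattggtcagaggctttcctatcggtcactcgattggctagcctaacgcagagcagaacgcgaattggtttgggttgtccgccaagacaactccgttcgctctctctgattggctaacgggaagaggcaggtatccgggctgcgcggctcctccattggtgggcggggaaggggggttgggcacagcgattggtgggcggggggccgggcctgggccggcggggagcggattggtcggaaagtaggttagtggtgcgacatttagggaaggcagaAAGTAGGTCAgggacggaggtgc

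Both strands were searched, and no element overlapped another. Per3 holds the D-box at bases 46 to 53 and again at 93 to 100 of its window, Bhlhe41 the E-box at 98 to 103, and Arntl the ROR element at 278 to 287. Over all 32851 windows the E-box was in 7.15%, TTATGTAA in 0.938%, TTATGCAA in 0.743% and the ROR element in 0.606%. Of the 16 clock genes with a window, 5 held an E-box in at least 1 window (Bhlhe41, Ciart, Cry1, Per1 and Tef). TTATGTAA was found in 1 (Per3), TTATGCAA in 1 (Per1) and the ROR element in 1 (Arntl). These are counts of genes, which can have more than 1 window, while the percentages are shares of windows. A match is a description of letters and not evidence of binding.

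Nr1d2 (ENSMUSG00000021775), the repressor REV-ERB beta, had the largest difference among the liver only rises with a mean of at least 5 CPM in each tissue that kept their class in every fit leaving out 1 library. It was at 9.15, 16.4 and 14.9 CPM in the low and at 112, 98.2 and 71 CPM in the high liver libraries. In the colorectum it was at 79.5, 107, 50.6 and 108 CPM in the low and at 54.2, 77.7 and 85.2 CPM (lowest, median, highest) in the high libraries. The liver groups were far apart and the colorectum groups overlapped. The liver change was 2.89 (SE 0.22, adjusted p = 3.72e-04), the colorectum change -0.18 (interval -0.58 to 0.22) and the difference -3.06 (SE 0.31, adjusted p = 5.94e-05).

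Output and repressor genes of the loop had larger liver rises. Dbp, a D-box activator, went from 0.751, 1.17 and 0.631 CPM to 93.2, 61 and 43.7 CPM in the liver (6.34, SE 0.36, adjusted p = 3.51e-04), and its colorectum change of 0.09 had an interval from -1.34 to 1.52, too wide for the liver only class, as were those of Bhlhe41 and Per3. Bhlhe41, an E-box repressor, changed by 4.59 (SE 0.34) in the liver and -0.50 (interval -1.07 to 0.06) in the colorectum, a difference of -5.09 (SE 0.47, adjusted p = 3.19e-05). Per3, a period protein, changed by 3.37 (SE 0.43) in the liver and 0.47 (interval -0.13 to 1.07) in the colorectum, and it was not called in the liver when low library 3 was left out (3.29, adjusted p = 0.0825). Nr1d1, the partner of Nr1d2, changed by 2.91 (SE 0.44) in the liver and 0.26 (interval -0.25 to 0.76) in the colorectum, and its liver call was lost with the liver block (adjusted p = 0.0759) and without low library 2 or any of the high libraries (adjusted p up to 0.112).

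Of the activators, Npas2 and Arntl fell in the liver, while Clock was not called (-0.10, SE 0.12, adjusted p = 0.677). Npas2, which can replace Clock, was at 8.27, 8.9 and 7.18 CPM in the low and at 0.339, 0.253 and 0.707 CPM in the high liver libraries. Its change was -4.12 (SE 0.35, adjusted p = 4.96e-04) in the liver and 0.13 (interval -0.42 to 0.67) in the colorectum, and the difference was 4.25 (SE 0.49, adjusted p = 1.36e-04). Arntl (BMAL1), the partner of Clock, was at 29.8, 33.4 and 30.1 CPM in the low and at 2.57, 3.76 and 5.84 CPM in the high liver libraries. Its change was -2.84 (SE 0.30, adjusted p = 0.00226) there and -0.02 (interval -0.77 to 0.74) in the colorectum. The other falls in the liver were in the repressors Cry1 (-1.78) and Nfil3 (-1.69). Per3, Nr1d1 and Arntl were chosen after their values were seen. The time of day at which tissues were taken is not given in the sources used here.

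**Figure D4:**
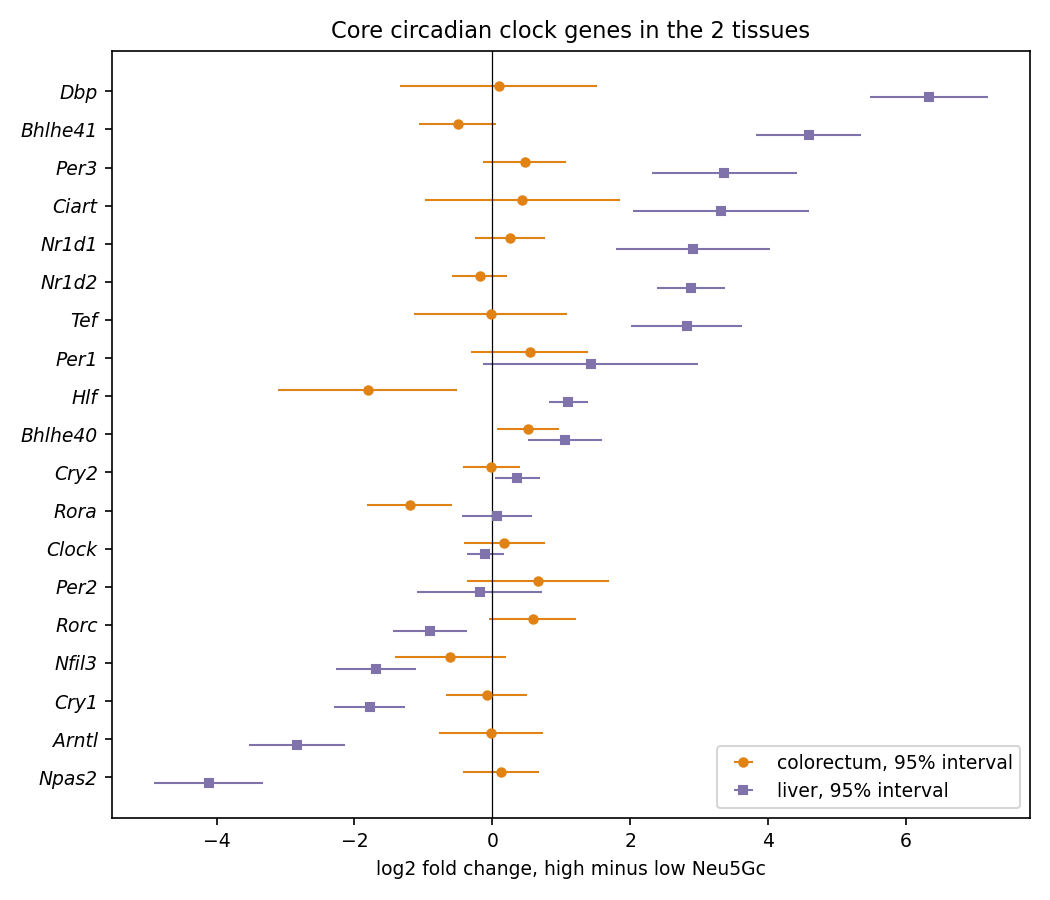
Log2 fold change (high minus low Neu5Gc) with 95% intervals for 19 core circadian clock genes in the colorectum (orange circles) and the liver (purple squares), ordered by the liver change. The liver changes run from -4.12 for Npas2 to 6.34 for Dbp, while most colorectum intervals cross 0.

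Outside the clock, the liver only falls with a mean of at least 5 CPM in each tissue were led by Ppard (ENSMUSG00000002250), a lipid-sensing nuclear receptor related to Ppara. It was at 42.9, 39.9 and 46.2 CPM in the low and at 6.56, 5.06 and 5.95 CPM in the high liver libraries. In the colorectum it was at 198, 231, 191 and 158 CPM in the low and at 203, 237 and 253 CPM (lowest, median, highest) in the high libraries. The liver change was -2.79 (SE 0.13, adjusted p = 2.03e-05), the colorectum change 0.27 (interval -0.02 to 0.56) and the difference 3.08 (SE 0.21, adjusted p = 3.09e-06). Chka (ENSMUSG00000024843), the choline kinase that starts phosphatidylcholine synthesis, went from 145, 161 and 150 CPM to 24.8, 29.6 and 35.8 CPM in the liver, a change of -2.25 (SE 0.16, adjusted p = 1.24e-04). Its colorectum change was -0.11 (interval -0.40 to 0.18).

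The other named liver only genes were 2 that fell and 4 that rose. Lgalsl, a galectin-like protein, fell by 1.62 (SE 0.17), and St5, an activator of Rab GTPases, fell by 1.42 (SE 0.18). Their colorectum changes were 0.14 and 0.28. Tpm2, a tropomyosin of muscle, rose by 2.04 (SE 0.21) in the liver, from 4.36, 3.98 and 3.18 CPM to 12.7, 13.7 and 18.3 CPM, beside the rise in muscle markers. Tns2, a focal adhesion protein, rose by 1.16 (SE 0.13), Nr2f2, the nuclear receptor COUP-TFII, by 1.18 (SE 0.12), and Dcun1d4, a factor of cullin neddylation, by 0.91 (SE 0.11). Their colorectum changes were -0.23, -0.11 and -0.43, and none was called. Ppard, Chka, Lgalsl, St5, Tpm2, Tns2, Nr2f2, Dcun1d4 and Nr1d2 kept their class in all 16 fits.

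Genes that passed the count filter in 1 tissue made up another group. Of 2885 that passed in the colorectum and not in the liver, 224 rose (7.76%) and 294 fell (10.2%), against 7.29% and 8.21% of all genes tested there. Of 446 that passed in the liver and not in the colorectum, 37 rose (8.3%) and 13 fell (2.91%), against 3.15% and 3.32% of all. A gene can pass the filter through the dose group in which it is high. Myh1, for one, was at 0.0665 to 0.986 CPM in the low and at 17.2 to 31.4 CPM in the high liver libraries. The shares called in both sets are therefore partly set by the filter, and no result is drawn from them. Hoxd13, a posterior homeobox gene, was at 0.0406, 0.186, 2.31 and 0.195 CPM in the low and at 49.6, 90.6 and 113 CPM (lowest, median, highest) in the high colorectum libraries, and at 0 in all 6 liver libraries. Ly6g, a neutrophil surface protein, rose by 6.32 (SE 0.83), and Atp12a, a proton-potassium pump subunit, by 6.23 (SE 1.32). Among called genes with a mean of at least 5 CPM in the colorectum, the largest falls were in kidney transporters. Slc22a12, the renal urate carrier, was at 0.984, 0.093, 0.0268 and 449 CPM in the low libraries, and its change went from -8.64 to -0.30 (adjusted p = 0.898) without low library 4. Slc7a13 went from -8.53 to -0.69 (adjusted p = 0.634) and Slc22a19 from -7.34 to -1.15 (adjusted p = 0.194) without that library, so that these falls rest on the library with kidney markers. These 3 calls were also lost under limma-voom (adjusted p up to 0.382) and without high library 3, 4 or 5, for Slc22a12 and Slc7a13 also high 2, for Slc7a13 and Slc22a19 also high 6 and for Slc22a19 also high 1 (adjusted p up to 0.103).

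In the liver, Igfbp1, a secreted binding protein of insulin-like growth factors, was the largest fall of this kind among called genes with a mean of at least 5 CPM there. It was at 87.8, 83.5 and 96.9 CPM in the low and at 11.2, 10.2 and 13.8 CPM in the high libraries (-2.84, SE 0.15, adjusted p = 2.39e-05). Nat8f5, an N-acetyltransferase relative, fell by 1.46 (SE 0.11). Acnat2, an acyltransferase of fatty acid conjugation, fell by 1.38 (SE 0.24) and lost its call without liver high library 1 or 2 (adjusted p up to 0.0704). Ugt2b38, a glucuronosyltransferase, rose by 1.23 (SE 0.16). The rises of Myh1, a fast muscle myosin (5.28, SE 0.75), and Mup13, a major urinary protein with near-identical paralogs (1.34, SE 0.24), lost their liver calls with the block (adjusted p = 0.0838 and 0.0849). Without 1 library, Myh1 lost its call for liver low 1 or 3 or high 1 or 2 (adjusted p up to 0.143), and Mup13 for liver low 1 (0.0585).

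The counts for the lists of genes that follow are to be read against the shares of all genes tested, 7.29% higher and 8.21% lower in the colorectum, 3.15% and 3.32% in the liver, and 4.08% and 3.96% for the difference. Lipid synthesis genes were called in both tissues. Of 20 lipogenesis genes, 2 rose and 5 fell in the liver and 3 rose and 3 fell in the colorectum, and the difference was called positive for 5 and negative for 1. Over fits leaving out 1 library the liver counts were 0 to 1 rises, fewest without low library 1 or 3 or high library 1 or 2, and 5 to 6 falls, and 3 to 5 differences were positive. Acly, which supplies cytosolic acetyl-CoA, was at 342, 316, 444 and 243 CPM in the low and at 489, 544 and 678 CPM (lowest, median, highest) in the high colorectum libraries, and at 302, 388 and 392 against 178, 178 and 158 CPM in the liver. It rose by 0.75 (SE 0.20) and fell by 0.99 (SE 0.10), a difference of 1.75 (SE 0.28, adjusted p = 0.00189), with the colorectum call lost without low library 1, 2 or 4 or high library 1 or 5 (adjusted p up to 0.0735). Acss2 and Elovl5, which activate acetate and lengthen fatty acids, fell in the liver only, by 0.96 (SE 0.12) and 1.21 (SE 0.14). Their colorectum changes were 0.38 (interval 0.02 to 0.75) and 0.01, and neither was called. Me1, the malic enzyme that makes NADPH, fell in the colorectum only, by 3.08 (SE 0.58) with all libraries and by 1.77 (adjusted p = 2.06e-04) without low library 4, where it was at 228 CPM. Its difference of -3.14 lost the call without any 1 of the liver libraries other than high library 3 (adjusted p up to 0.075).

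Of 23 genes of cholesterol synthesis and uptake, none was called in the colorectum by edgeR or DESeq2 (2 higher and 0 lower at an unadjusted p under 0.05), while 1 rose and 7 fell in the liver. The rise, of Msmo1, was called in no fit leaving out 1 liver library. Leaving out 1 liver library left 3 to 7 of the falls, the fewest without low library 3 or high library 2. The difference was called for 3, Pmvk (1.61, SE 0.32), an early mevalonate kinase, Insig2 (0.85, SE 0.24), which retains the sterol sensor, and Dhcr7 (0.96, SE 0.28), the last enzyme of the pathway. With the liver block Insig2 (adjusted p = 0.0581) and Dhcr7 (0.0813) lost the difference call, and each also lost it in 13 and 12 of the 16 fits leaving out 1 library (adjusted p up to 0.119). In the unfolded protein response, 1 of 24 genes rose and 5 fell in the liver, and 1 rose and 1 fell in the colorectum. The liver falls were 20.8% of the list, against 3.32% of all genes, and the colorectum counts were each 4.17%, against 7.29% and 8.21%. Leaving out 1 liver library gave 2 to 6 falls there, the fewest without low library 3 or high library 1 or 2, and the colorectum rise was lost in 8 of the 10 fits without 1 colorectum library. Manf, a chaperone-like secreted protein, was opposite (0.56, SE 0.17, and -1.30, SE 0.26), with a called difference of 1.87 (SE 0.32, adjusted p = 0.00268), but its tissue calls were lost in most fits leaving out 1 library (adjusted p up to 0.102). Syvn1 and Creld2, of endoplasmic reticulum quality control, fell in the liver only by 1.11 (SE 0.19) and 0.99 (SE 0.20), and Trib3, a stress-induced pseudokinase, rose there by 1.15 (SE 0.23). The colorectum changes of Syvn1, Creld2 and Trib3 were 0.14, 0.49 and -0.58, and none was called. Each lost the liver call without high library 1 or 2, Syvn1 also without low 3 or high 3, Creld2 without low 1 or 3 and Trib3 without low 1 (adjusted p up to 0.105).

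Several oxidation and bile acid genes fell in the colorectum. Of 30 fatty acid oxidation genes tested there, 8 fell and 1 rose, with 13 falls without low library 3 and 3 without low library 4, and in the liver 3 of 33 fell. Acaa1b, a peroxisomal thiolase with a close paralog, fell in the colorectum by 5.24 (SE 0.96), and by 3.38 (adjusted p = 0.00288) without low library 4. Its difference of -5.10 was -3.25 without that library and was not called without any of the low liver libraries or liver high library 2 (adjusted p up to 0.078).

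Among bile acid genes, 4 fell and 1 rose of 19 tested in the colorectum, and 5 fell and 2 rose of 21 in the liver. Without low library 3 the colorectum had 8 falls, and without liver low library 1 the liver had 1. Slc51a, a subunit of the basolateral exporter, fell from 106, 175, 17.8 and 167 CPM to 0.199, 0.722 and 1.77 CPM (lowest, median, highest) in the colorectum (-7.08, SE 0.73), and was at 0.116 to 0.258 CPM in the liver. Nr1h4, the bile acid receptor FXR, fell by 0.90 (SE 0.20) in the colorectum, and its difference of -1.14 (adjusted p = 0.0306) was not called with the liver block (0.0549), without colorectum low library 2 or high library 5, or without any liver library but high library 3 (adjusted p up to 0.0808). Klb, the coreceptor of FGF15, rose by 2.26 (SE 0.28) in the colorectum and changed by 0.35 (interval 0.05 to 0.65) in the liver. Of 23 phase II enzymes, 2 rose and 5 fell in the colorectum, and 2 rose and 6 fell in the liver. The falls were 21.7% of the list in the colorectum, against 8.21% of all genes, and 26.1% in the liver, against 3.32%, and the rises were 8.7% in each, against 7.29% and 3.15%. Leaving out 1 liver library gave 3 to 5 falls and 0 to 3 rises there, with 3 falls without low library 1, 2 or 3 or high library 1 or 2. The glucuronosyltransferases Ugt2b5 and Ugt2b36, which have near-identical paralogs, fell by 4.66 (SE 0.70) and 2.55 (SE 0.39) in the colorectum and rose by 0.64 (SE 0.11) and 0.42 (SE 0.10) in the liver. Ugt2b36 lost its liver call with the block (adjusted p = 0.103) and without any of the low libraries or high library 2 (up to 0.149), and Ugt2b5 without low library 3 (0.052). Ugt1a1, which shares exons with its family, was in the colorectum only class with a fall of 2.55 (SE 0.41). Its liver change was -0.32 (interval -0.51 to -0.13, adjusted p = 0.0554, edgeR), and every high liver library lay below every low one. Its difference was lost without any liver library but high library 3 (adjusted p up to 0.0703).

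**Figure D5:**
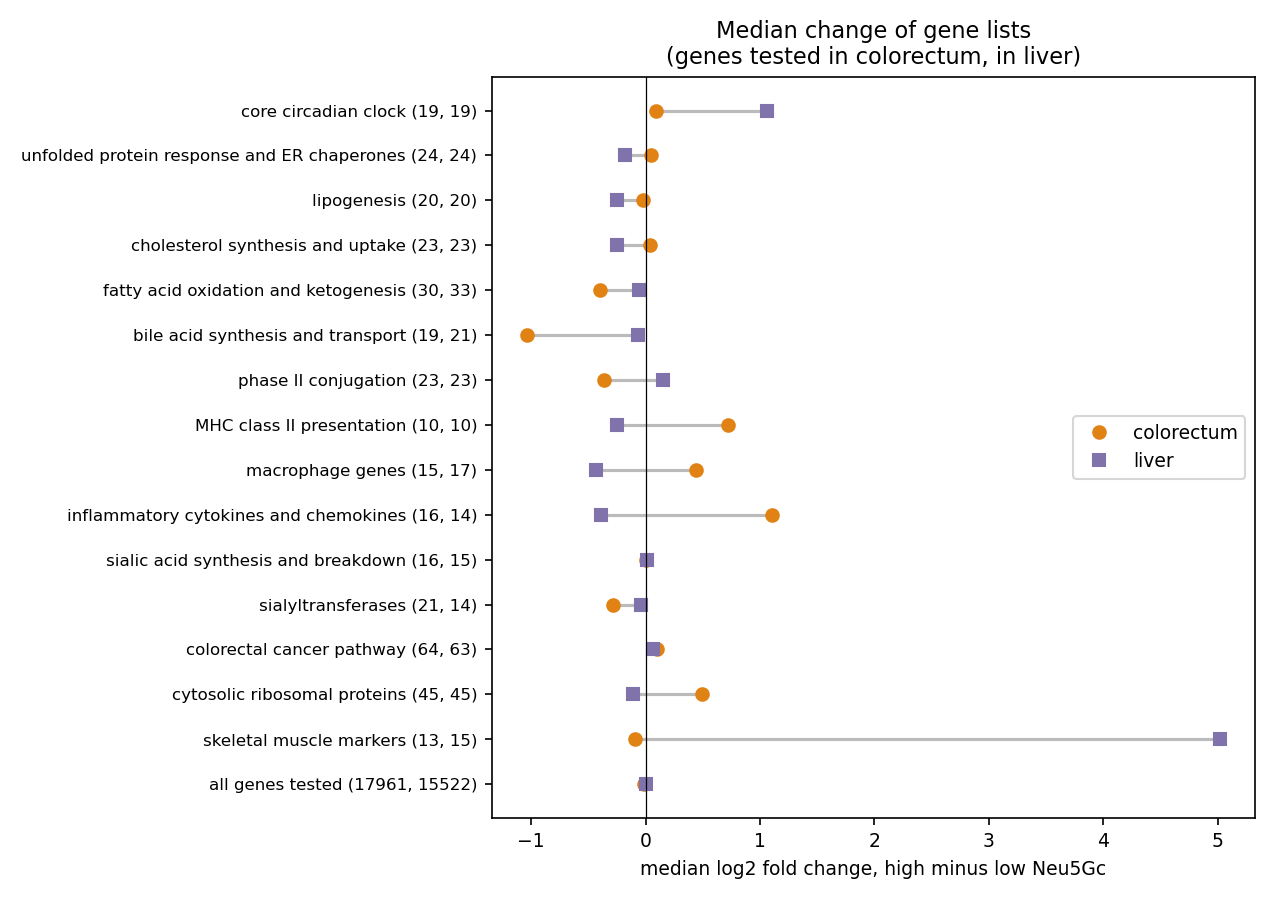
Median log2 fold change (high minus low Neu5Gc) of 15 gene lists and of all genes tested, in the colorectum (orange circles) and the liver (purple squares); the numbers in brackets are genes tested in each tissue. Of the lists shown, the tissues lie farthest apart for the skeletal muscle markers (5.02 in the liver), and all genes tested have medians of -0.02 and 0.00. These are 15 of 48 lists counted. Not shown and farther apart are the kidney tubule (-7.49 in the colorectum, -0.104 in the liver) and pancreatic acinar markers (-7.84 and -1.22).

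In the lists for MHC class II, macrophages and cytokines, the called genes were higher in the colorectum and lower in the liver. The interferon response list went otherwise, with 1 of 30 genes rising and 6 falling in the colorectum, 1 rising and 2 falling in the liver, and no called difference. Of 10 MHC class II presentation genes, 5 rose in the colorectum and 1 fell in the liver, with a called difference for 5 (3 with the liver block, and 1 to 7 over fits leaving out 1 library, the fewest without liver high library 2). H2-DMb1, a peptide-loading chaperone, rose by 1.05 (SE 0.22) in the colorectum and changed by -0.44 (SE 0.18) in the liver, and its difference was called (adjusted p = 0.0106). Ctss, a lysosomal protease of antigen processing, rose by 0.76 (SE 0.14) in the colorectum, and its difference was lost without liver high library 2 (adjusted p = 0.0507). Of the macrophage genes, 2 of 15 rose in the colorectum and 6 of 17 fell in the liver, but no liver fall was called without liver low library 3 or liver high library 2, and 3 with the block. Cd14, a lipopolysaccharide coreceptor, was opposite (1.17, SE 0.23, and -0.86, SE 0.19), with a difference of 2.04 (SE 0.34, adjusted p = 0.00212). Its call in the liver needed low libraries 1 and 3 and high libraries 1 and 2 (adjusted p up to 0.113 without 1 of them). Of the cytokine and chemokine genes, 4 of 16 rose in the colorectum and 2 of 14 fell in the liver. Ccl20, a lymphocyte attractant, rose by 2.74 (SE 0.47) in the colorectum, Il18, an epithelial cytokine, by 1.78 (SE 0.31), and Tnfaip3, a brake on NF-kappa-B, by 1.26 (SE 0.24). The difference was lost without liver low library 3 for Ccl20 (adjusted p = 0.116) and without that library or liver high library 1 or 2 for Il18 (up to 0.0725), and the rise of Tnfaip3 was not called without colorectum low libraries 3 and 4 (0.0632). The sum of neutrophil markers was also higher in the high colorectum libraries, but Ly6g made up most of it in each. Whether neutrophils were more abundant was not tested. Of 8 such markers tested there, 1 was called higher, and Ly6g alone was at 49.5 to 218 CPM in the high libraries.

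Of 45 cytosolic ribosomal protein genes, 26 rose in the colorectum and none was called in the liver by edgeR (1 higher and 5 lower at an unadjusted p under 0.05), where DESeq2 called 1 higher and 1 lower. The colorectum median was 0.49 and the liver median -0.11. Leaving out libraries moved the colorectum count to 40 (low 3), 17 (low 4), 14 (high 5) and 6 (low 3 and 4). The difference was called for 6, with a range of 0 to 17 over fits leaving out 1 library, and for 1 with the liver block. Rps19 went from 541, 485, 360 and 413 CPM to 678, 726 and 921 CPM (lowest, median, highest) in the colorectum, a rise of 0.77 (SE 0.14), with a liver change of -0.13 (interval -0.43 to 0.17) and a difference lost without low library 1 or 3 or high library 1 or 2 of the liver (adjusted p up to 0.0665). Processed copies of these genes may share their reads.

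Among genes of sialic acid synthesis and breakdown, Neu3 (ENSMUSG00000035239), the plasma membrane sialidase that acts on gangliosides, was opposite. It was at 3.06, 2.12, 3.55 and 2.22 CPM in the low and at 8.17, 11.4 and 15.4 CPM (lowest, median, highest) in the colorectum at the high dose. In the liver it was at 4.89, 3.64 and 3.32 CPM in the low and at 1.14, 1.3 and 0.966 CPM in the high libraries. The groups were apart in both tissues and in opposite order, with a difference of 3.83 (SE 0.37, adjusted p = 3.82e-05). Of the 16 genes, 3 rose and 1 fell in the colorectum, and 1 of 15 rose and 2 fell in the liver. These are 18.8% and 6.25% of the list in the colorectum, against 7.29% and 8.21% of all genes, and 6.67% and 13.3% in the liver, against 3.15% and 3.32%. Leaving out 1 library gave 0 to 1 rises and 1 to 2 falls in the liver. Slc17a5, the lysosomal exporter of sialic acid, was called in neither tissue, but its difference of -0.74 (SE 0.18, adjusted p = 0.0233) was; the call was lost without liver low library 1 or 3 or high library 2 (adjusted p up to 0.0649).

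Cmah (ENSMUSG00000016756), which makes Neu5Gc in mice, was at 63.7, 66.4, 89.4 and 61.4 CPM in the low and at 9.51, 22.1 and 36.9 CPM (lowest, median, highest) in the high colorectum libraries. It was at 198, 284 and 241 CPM in the low and at 227, 211 and 172 CPM in the high liver libraries. The colorectum groups were apart and the liver groups overlapped. Cmah fell by 1.74 (SE 0.28, adjusted p = 0.00285) in the colorectum, its liver change was -0.16 (interval -0.45 to 0.13) and the difference was -1.57 (SE 0.40, adjusted p = 0.026). That difference was not called without liver low library 1 or 3 or liver high library 1 or 2 (adjusted p up to 0.0732), nor without colorectum low libraries 3 and 4 (-1.37, adjusted p = 0.0582). Of the sialyltransferases, 3 of 21 rose and 2 fell in the colorectum, and 1 of 14 rose and 1 fell in the liver. Beside the same shares of all genes, these are 14.3% and 9.52% of the list in the colorectum and 7.14% each in the liver, where the rise was lost without any library but high library 3. St3gal5, which makes the ganglioside GM3, changed by -1.38 (SE 0.25) and 0.47 (SE 0.12), with the liver call lost under the block (adjusted p = 0.1) and without any liver library but high library 3 (up to 0.173). St6galnac4 rose by 1.51 (SE 0.31) in the colorectum only, and its difference was not called with the block (adjusted p = 0.0531) or in 8 of the 16 fits leaving out 1 library (up to 0.0937).

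In the colorectal cancer pathway, 6 of 64 genes rose and 3 fell in the colorectum, and 2 of 63 rose and 1 fell in the liver. These are 9.38% and 4.69% of the list in the colorectum, against 7.29% and 8.21% of all genes, and 3.17% and 1.59% in the liver, against 3.15% and 3.32%. Leaving out 1 library gave 3 to 10 rises in the colorectum, the most without low library 3 and the fewest without low library 2 or 4 or high library 3, 4 or 5, and 2 to 5 falls. The difference was called for 9, among them Tcf7l1 above, 3 positive and 6 negative, and 2 were negative without liver low library 3 or high library 2. Tgfbr1, a receptor of TGF-beta, was opposite (-0.62, SE 0.15, and 0.59, SE 0.12), and so was Rac2, a GTPase of blood cells (0.79, SE 0.23, and -1.09, SE 0.15). The liver call of Tgfbr1 was lost without low library 1 or 3 or high library 1 or 2 (adjusted p up to 0.0859), and the colorectum call of Rac2 in 7 of 10 such fits (adjusted p up to 0.094). Pik3cb, a catalytic subunit of PI3-kinase, was in the colorectum only class with a fall of 0.50 (SE 0.11). Its liver change was 0.35 (interval 0.12 to 0.57, adjusted p = 0.0739, edgeR), and every high liver library lay above every low one. Apc itself was called in neither tissue: its changes were -0.53 (SE 0.20, adjusted p = 0.088) and 0.10 (SE 0.14, adjusted p = 0.748), and the difference was -0.61 (interval -1.23 to 0.01, adjusted p = 0.206). A total Apc count does not separate the Min allele from the normal one.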

How the data were processed

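Bulk RNA-seq of 10 colorectum and 6 liver libraries was analysed. The authors deposited estimated counts per Ensembl gene and TPM for each tissue; the genome build was GRCm39, per the submitters' processing notes, and no aligner or counting tool is named in those notes or the file headers. A table of gene names supplied with the reference gave symbols for 35825 of 36118 IDs (99.2%).

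The rounded estimated counts, scaled by TMM, went through filterByExpr and the robust, two-sided quasi-likelihood test of edgeR 4.0.16 (R 4.3.3), with a Benjamini-Hochberg threshold of 0.05. Each tissue was fitted alone for its change, and all 16 libraries together for the difference between tissues. SE is the log2 change divided by the square root of F. The tests were also run on simulated counts, drawn independently for each library. These held no tissue admixture in single libraries and no linked liver libraries, so that run cannot speak to either.

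The text names, per class and direction, 6 alike or opposite genes by the smaller change and 5 of 1 tissue by the difference, at a mean of at least 5 CPM in each tissue, those stable to leaving out 1 library first; 3 rises and falls of genes measured in 1 tissue; Apc and Cmah; and up to 4 genes per list by p. For 2 genes under this rule the values are not reported here. Further list members with a value only are examples. The comparison, lists and members were chosen with earlier results of these data known.

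Alternatives were DESeq2 1.42.0, limma 3.58.1 (voom; log2 TPM plus 1 or 0.1), other scalings, filters, thresholds, thinning, replicate blocks and leaving out libraries. Deviations of same-numbered low and high libraries correlated at 0.58, 0.29 and 0.21 in the liver and at -0.11 to -0.048 in the colorectum across 15522 genes, so liver numbers were treated as pairs in the liver block, which was added after seeing the data; between tissues they ran from -0.25 to 0.061.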

Additional observations from a re-analysis of the deposited data

Results flagged for a closer look

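Within the 4 low and the 6 high colorectum libraries, 30 of 209 groups of values had 1 library far from the others by Dixon's test at 95%, where chance flags about 1 in 20 groups. In the colorectum, high library 1 stood apart in CPM for Plin2 (161), Slc22a12 (1.27), Slc7a13 (0.794) and Ugt2b38 (0.538). In the colorectum, high library 2 stood apart in CPM for Acacb (20.9), Slc10a2 (4.07) and Apc (112). In the colorectum, high library 3 stood apart in CPM for Bhlhe41 (6.18). In the colorectum, high library 4 stood apart in CPM for St3gal1 (29.9) and Igfbp1 (0.167). In the colorectum, high library 5 stood apart in CPM for Nr1d2 (54.2). In the colorectum, high library 6 stood apart in CPM for Nags (2.56). In the colorectum, low library 3 stood apart in CPM for Ggh (85.5), Hoxd13 (2.31), Ly6g (3.36), Atp12a (20.1), Nr1h4 (47.5), St6galnac4 (45.9) and Tcf7l1 (21.6). In the colorectum, low library 4 stood apart in CPM for Slc3a1 (219), Dcun1d4 (30.3), Slc22a12 (449), Slc7a13 (288), Slc22a19 (68.3), Ugt2b38 (257) and Igfbp1 (4.06). Likewise, low library 4 stood apart in CPM for Nat8f5 (13.8), Acnat2 (12.6), Me1 (228) and Acaa1b (112).

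The difference between tissues was called for 84 of the genes named, by the interaction term of the edgeR fit, and its log2 value (colorectum change minus liver change) follows. The values of Ccl20 and Mup13 are fitted against a group whose libraries are all at 0 (Ccl20 in the high liver, Mup13 in the high colorectum libraries) and depend on the prior count. Values were 1.63 for Rdh9, 1.56 for Abcg5, 2.65 for Slc45a3, 3.25 for Aqp8, 2.96 for Nt5e, 1.91 for Apobec1, 1.52 for Gstm2, 1.64 for Plin2 and -2.38 for Slc25a4. Then came -1.94 for Jade1, -6.26 for Ckm, -2.11 for Tbc1d16, -1.57 for Shf, -2.49 for Ppara, 3.44 for Cyp2d12, 2.57 for Ggh, 2.50 for Prdx6 and 2.40 for Gstp3. Further values were 2.32 for Adgrf1, -4.66 for Vnn1, -4.44 for Slc3a1, -4.18 for Slc10a2, -3.87 for Car8, -3.19 for Nags, -3.06 for Nr1d2, -1.99 for Tpm2 and -1.38 for Tns2. Beside these stood -1.33 for Dcun1d4, -1.28 for Nr2f2, 3.08 for Ppard, 2.14 for Chka, 1.76 for Lgalsl, 1.71 for St5, -5.92 for Myh1 and -5.67 for Mup13. To these came -1.57 for Cmah, -5.09 for Bhlhe41, 4.25 for Npas2, -6.24 for Dbp, 1.87 for Manf, 1.26 for Syvn1, -1.72 for Trib3, 1.49 for Creld2 and 1.75 for Acly. Also called were 1.36 for Acss2, 1.23 for Elovl5, -3.14 for Me1, 1.61 for Pmvk, 0.85 for Insig2, 0.96 for Dhcr7, -5.10 for Acaa1b and 1.94 for Klb. Values were -6.59 for Slc51a, -1.14 for Nr1h4, -2.96 for Ugt2b36, -5.29 for Ugt2b5, -2.22 for Ugt1a1, 1.5 for H2-DMb1, 0.95 for Ctss, 1.35 for H2-Eb1 and 1.30 for H2-Aa. Then came 2.04 for Cd14, 1.14 for Cd68, 1.02 for Lyz2, 1.94 for Tnfaip3, 7.86 for Ccl20, 1.64 for Il18, 3.83 for Neu3, -0.74 for Slc17a5 and -1.84 for St3gal5. Further values were 1.68 for St6galnac4, 3.14 for Tcf7l1, -0.84 for Pik3cb, -1.20 for Tgfbr1, 1.88 for Rac2, 0.91 for Rps19, 0.74 for Rps18, 0.71 for Rpl32 and 0.78 for Rpl18. Beside these stood -7.50 for Acta1, -5.35 for Atp2a1, -2.65 for Nr1d1, -2.89 for Per3 and 2.82 for Arntl.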

How the results depend on the processing

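For single genes, the values followed were the tissue changes of alike genes and of genes that passed the filter in 1 tissue. For the others it was the difference between tissues, so tissue calls that they lost are not counted here. Of these values none reversed under the alternatives run. When 1 library was left out 1431 kept and 149 lost their call, and 1351 kept and 113 lost it under the other alternatives. Ppara, for one, kept its difference call in all 16 fits leaving out 1 library, but its class in 12. Apc, which was not called, counts as kept. The cause of the shifts below was not tested.

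The colorectum called 2784 genes, but 1748 on log2(TPM + 1), 1739 on log2(TPM + 0.1), 887 at an adjusted p of 0.01 and 1209 at an absolute log2 change of at least 1. The liver called 1004, but 1742 by DESeq2's Wald test, 1703 and 1676 on the TPM scales, 432 from the fit of all 16 libraries, 281 at 0.01 and 315 at a change of at least 1. The difference was called for 1504 genes, but 2352 by DESeq2 and 481 at 0.01. On log2(TPM + 0.1) the median liver change shifted by -0.203 with 9.55% of calls higher, and that of the difference by 0.115 with 72.8% higher.

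By DESeq2, 172 genes were alike, 225 opposite and 425 liver only. Tissue changes from the fit of 16 libraries gave 41 alike and 61 opposite. At 0.01 there were 12 alike, 11 opposite, 148 colorectum only and 69 liver only genes, and at a change of at least 1 there were 17, 20, 217 and 101. On log2(TPM + 1) 426 and on log2(TPM + 0.1) 437 were liver only, and on the latter 349 colorectum only. With the other tissue held within 1.5-fold, 316 were colorectum only and 120 liver only.

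Leaving out 1 library gave 1592 to 3654 calls in the colorectum, 387 to 935 in the liver and 825 to 2177 differences, with 33 to 102 alike, 37 to 128 opposite, 294 to 886 colorectum only and 86 to 278 liver only genes. The lowest values came without liver low library 3, except in the colorectum (high library 5) and colorectum only (liver high library 2).

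Replicate numbers as a block in both tissues, which in the colorectum are shared numbers only, gave 477 colorectum calls, 630 liver calls, 602 differences, 17 alike, 12 opposite, 136 colorectum only and 92 liver only genes. Numbers as a block within dose across tissues gave 540 differences, 165 colorectum only and 79 liver only genes. The block in the liver alone, added after seeing the data, left 63 opposite and 151 liver only genes.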
